A study of Mus musculus with 6 samples.

Results

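The ZFP36, Regnase-1, TOB and BTG1 genes decide how long many messenger RNAs last, and 7 of them were followed here in mouse kidney epithelial cells that stayed attached or were held in suspension. They were taken by gene name (Zfp36, Zfp36l1, Zfp36l2, Zc3h12a, Tob1, Tob2 and Btg1) from the authors' deposited table. Each name had a row of its own, so the 7 stand among 37757 rows, of which 14748 were tested, and all 7 were tested. The cells came from C57/Bl6J mice aged 8 weeks, and both conditions carry the genotype Bim-/- Bmf-/-, the loss of a pair of BH3-only death genes. There were 3 attached libraries and 3 from cells kept in suspension for 4 h, which the sample titles name for anoikis, the death of cells without anchorage. No cells with intact Bim and Bmf were analysed here, so the values describe cells of this genotype only.

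The authors made 1 FPKM (fragments scaled to transcript length and library size) per gene and condition, which is a level per length, and added the log2 fold change, p and q of their own test. A gene is called here when its q is below 0.05. Values for single libraries were not analysed here, so no spread between replicates stands beside a level, and the depth is unknown. Where a range is given for a log2 fold change, it is an approximate 95% interval worked back from the deposited p under a normal approximation. The deposited p goes no lower than 5e-05, so for genes at that value the interval is the widest one the p allows. The labels do not say whether the libraries came from separate cultures or animals, and the p-values may therefore measure technical spread only. The columns carry letters only, and S was taken to mean suspension.

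ZFP36 (also known as tristetraprolin), ZFP36L1 and ZFP36L2 are zinc finger proteins that bind AU-rich elements in the 3′ untranslated region (UTR) of a transcript and bring the CCR4-NOT deadenylase to it, which shortens the poly(A) tail. Regnase-1, the product of Zc3h12a, is an endonuclease that cuts stem-loops in the 3′ UTR of inflammatory transcripts. TOB1, TOB2 and BTG1 have no sequence-specific RNA binding of their own and join the deadenylase subunits CNOT7 and CNOT8, and they are known as brakes on cell proliferation. Zfp36 and Zc3h12a are known as genes that are induced fast by stress and inflammatory signals.

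The AU-rich site itself is shown first because it sets the 3 ZFP36 family transcripts apart in sequence from the other 4. The preferred site of the family is the nonamer TTATTTATT (written as DNA), which contains the heptamer TATTTAT, and both were searched on the transcript strand only. In the longest annotated 3′ UTR of each gene (GENCODE M21, GRCm38) the nonamer occurred once in each of Zfp36, Zfp36l1 and Zfp36l2. Capitals mark it in these 30-base windows.
Zfp36: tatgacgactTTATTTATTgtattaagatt
Zfp36l1: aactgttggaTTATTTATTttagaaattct
Zfp36l2: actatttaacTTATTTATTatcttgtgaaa
Their positions are chr7:28376950-28376979, chr12:80108166-80108195 and chr17:84184913-84184942, all on the minus strand and in the 3′ UTR. Among 20971 genes with an annotated 3′ UTR, 7.60% held the nonamer. Among 3′ UTRs within 20% of the same length the share was 4.04% for Zfp36 (774 bases), 9.91% for Zfp36l1 (1835 bases) and 9.92% for Zfp36l2 (1822 bases).

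Zc3h12a, Tob1, Tob2 and Btg1 held no nonamer. Tob2 held a single heptamer, shown because it was the sole gene with one among these 4.
Tob2: tatcacctgctTATTTATgtacgaggttgg
It lies at chr15:81849859-81849888 on the minus strand. Zc3h12a, Tob1 and Btg1 held no heptamer either, and the absence is most uncommon for Btg1, whose 3′ UTR of 4166 bases is the longest of the 7. Of 1442 3′ UTRs of like length, 60.6% held a heptamer. The shares for the lengths of Zc3h12a and Tob1 were 20.5% and 19.3%. A match describes these letters and is not evidence that a protein is bound.

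Of the 7 genes, 3 rose in suspension (Zfp36, Zc3h12a and Tob1), 2 fell (Zfp36l1 and Zfp36l2) and 2 were not called (Tob2 and Btg1), per the authors' deposited table. Calls were common in the whole comparison: 51% of tested rows were called, 24.7% higher and 26.3% lower. A count of 5 called among 7 is therefore no mark of this group. A 2-fold change was reached by 1 gene, Zc3h12a, against 12.4% of tested rows called at least 2-fold higher and 7.12% called at least 2-fold lower. The log2 fold changes ran from -0.66 to 1.18 with a median of -0.11, beside a median of -0.04 over all tested rows. In RNA from bulk cultures, fewer cells of a type and less RNA per cell cannot be told apart.

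**Figure D1:**
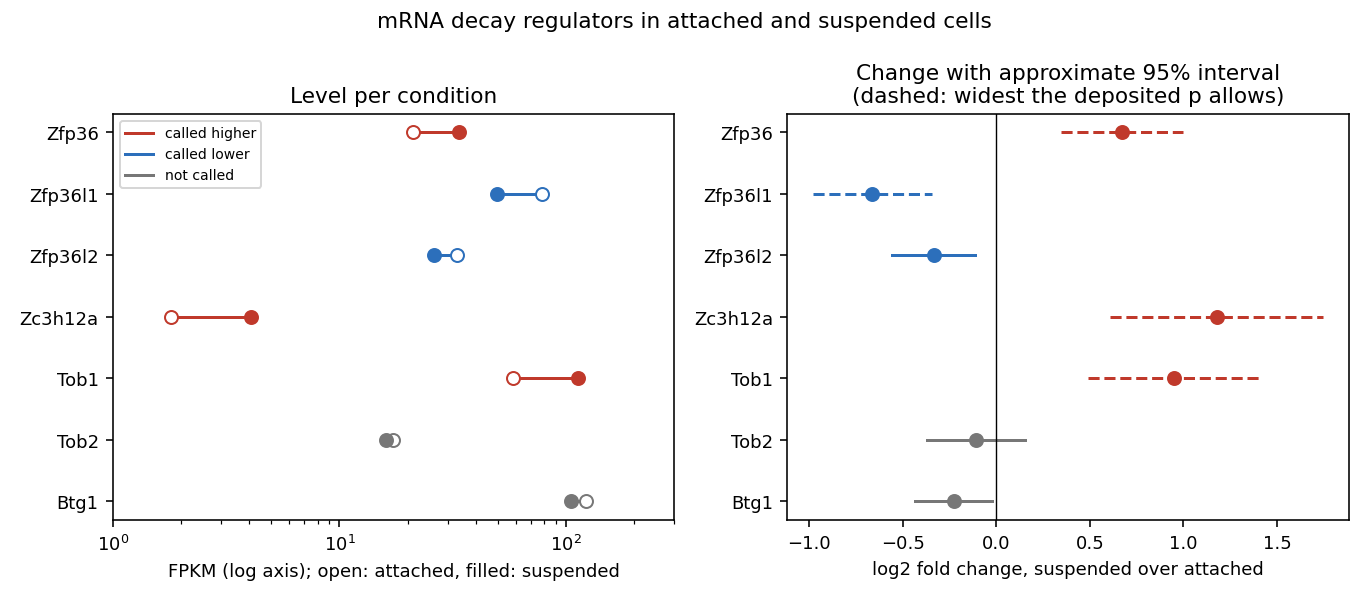
Left, FPKM of each gene on a log axis in attached (open circles) and suspended cells (filled circles), coloured by the authors' call; right, log2 fold change (suspended over attached) with the approximate 95% interval, dashed where it is the widest the deposited p allows. Zfp36, Zc3h12a and Tob1 lie to the right of 0, Zfp36l1 and Zfp36l2 to the left, and only the interval of Tob2 crosses 0.

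The ZFP36 family split. Zfp36 (chromosome 7, positions 28376784 to 28379255) stood at 21.2 FPKM attached and 33.7 FPKM suspended per the authors' deposited table. That is a 1.59-fold rise (log2 0.67, interval 0.35 to 1.00, q = 0.000185), larger than in 78.3% of tested rows above 0 in both conditions. Zfp36l1, the most abundant of the 3 in both conditions, fell from 78.5 to 49.6 FPKM per the authors' deposited table. It was 1.58-fold lower (log2 -0.66, interval -0.98 to -0.34, q = 0.000185). Its row spans chromosome 12, positions 80107760 to 80113013. Zfp36l2 (chromosome 17, positions 84183931 to 84187947) fell less, from 32.9 to 26.1 FPKM per the authors' deposited table. The fall was 1.26-fold (log2 -0.33, interval -0.56 to -0.11, q = 0.00793).

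On the deposited scale Zfp36 and Zfp36l1 thus moved by almost the same factor in opposite directions. Centred on the median gene, their log2 changes were 0.78 and -0.55. The summed FPKM of the family went from 132.5 attached to 109.4 suspended. Zfp36 made up 16.0% of that sum in attached and 30.8% in suspended cells, Zfp36l1 59.2% and 45.3%, and Zfp36l2 24.8% and 23.8%. In the order by FPKM, Zfp36 stood below Zfp36l2 in attached cells and above it in suspended cells. These sums and shares are ratios of single deposited values and carry no test. The fourth family gene of the mouse, Zfp36l3, was listed at 0 in both conditions and was not tested.

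**Figure D2:**
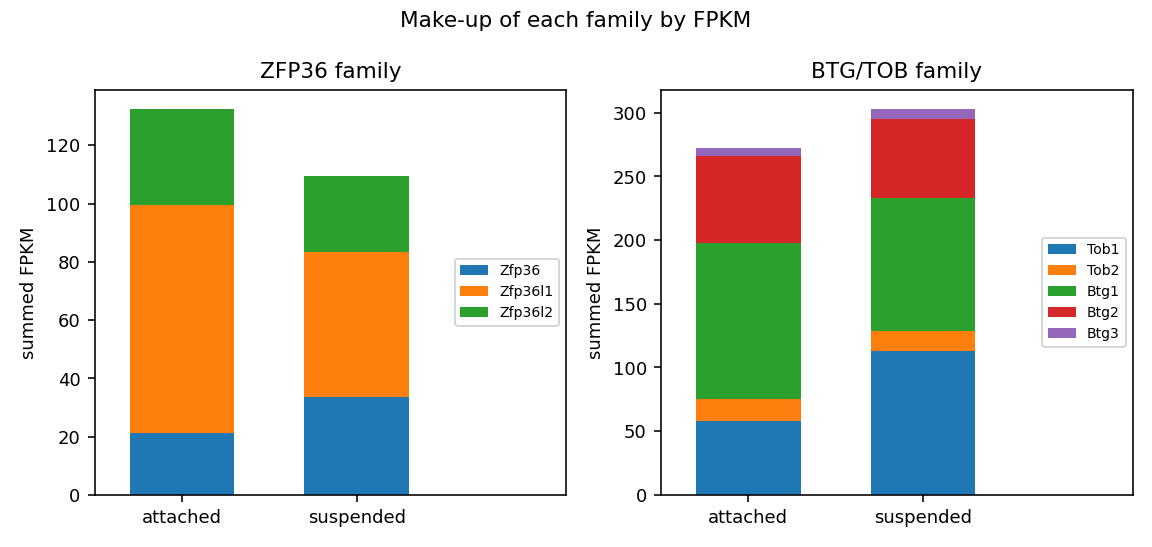
Summed FPKM of the ZFP36 family (left) and of the TOB and BTG family (right) in attached and suspended cells, with each gene as a segment. The Zfp36 segment grows from 21.2 to 33.7 FPKM while Zfp36l1 shrinks from 78.5 to 49.6, and Tob1 grows from 58.3 to 112.7.

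Antisense partners limit some of these values. In GENCODE M21, 4 of the 7 rows overlap an annotated noncoding gene on the other strand: Gm44710 at Zfp36, Gm26669 at Zfp36l1, AC132455.1 at Zfp36l2 and Gm49476 at Tob2. Whether strand was counted is not given in the sources used here, so reads of the partners cannot be told apart from those of the coding genes. Gm26669 has its own row at the same positions as Zfp36l1 and went from 29.3 to 18.6 FPKM (q = 0.0139) per the authors' deposited table. Its log2 change of -0.66 equals that of Zfp36l1 to 2 decimals. The rows of Zc3h12a, Tob1 and Btg1 overlap no other annotated gene.

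Regnase-1 transcript was the scarcest of the 7 and had the largest deposited log2 change. That rank depends on its low level: with a pseudocount of 1 FPKM its log2 was 0.86, below the 0.94 of Tob1. Zc3h12a (chromosome 4, positions 125118423 to 125127840) went from 1.80 FPKM attached to 4.07 FPKM suspended per the authors' deposited table. This was a 2.26-fold rise (log2 1.18, interval 0.61 to 1.75, q = 0.000185), and its level in suspension was still below that of the other 6 genes in either condition. Among its relatives, Zc3h12c, which encodes another RNase of the family, rose from 4.14 to 8.64 FPKM (q = 0.000185) per the authors' deposited table. Zc3h12b stood at 1.93 and 1.42 FPKM (q = 0.158) per the authors' deposited table. Zc3h12d was near 0, at 0.00246 and 0.0933 FPKM, and was not tested. The summed FPKM of the 4 Regnase genes went from 7.87 to 14.2, with Zc3h12c holding 52.6% of it attached and 60.7% suspended.

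Roquin-1 and Roquin-2, encoded by Rc3h1 and Rc3h2, recognise stem-loops of the same kind as Regnase-1. Rc3h1 rose from 11.1 to 17.6 FPKM (q = 0.000185) per the authors' deposited table. Rc3h2 stood at 16.6 and 19.0 FPKM (q = 0.132) per the authors' deposited table. Over the 9 listed relatives of the 7 genes, which also include the other BTG genes and Zfp36l3, 6 were tested, of which 2 rose (33.3%, beside 24.7% of all tested rows), 0 fell and 4 were not called, with the same counts of higher and lower at an unadjusted Cuffdiff p below 0.05.

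In the TOB and BTG group 1 of the 3 genes followed was called, beside 51% of all tested rows. Tob1 (chromosome 11, positions 94211454 to 94215495) rose from 58.3 FPKM attached to 112.7 FPKM suspended per the authors' deposited table. The rise was 1.93-fold (log2 0.95, interval 0.49 to 1.41, q = 0.000185) and larger than in 83.6% of the same rows. Its close relative Tob2 (chromosome 15, positions 81848270 to 81858796) stood at 17.3 and 16.0 FPKM (q = 0.532) per the authors' deposited table. The interval of its log2 change, -0.37 to 0.15, leaves out a rise of the size seen for Tob1. Btg1 (chromosome 10, positions 96617001 to 96622813) stood at 122.5 and 104.6 FPKM (q = 0.0589) per the authors' deposited table. Its log2 change was -0.23 (interval -0.43 to -0.02), with an unadjusted p of 0.029 that did not pass after adjustment.

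Of the other family genes, Btg2, a p53-responsive antiproliferative gene, stood at 67.9 and 61.8 FPKM (q = 0.299) per the authors' deposited table. Btg3 stood at 6.19 and 8.02 FPKM (q = 0.391) per the authors' deposited table, and Btg4 was near 0 and not tested. Tob1 thus was the single called gene of 5 tested TOB and BTG genes, beside 51% called among all tested rows. The sum of the 5 went from 272.1 to 303.1 FPKM, and the part held by Tob1 from 21.4% to 37.2%, while Btg1 went from 45.0% to 34.5%.

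In attached cells the order by FPKM was Btg1, Zfp36l1, Tob1, Zfp36l2, Zfp36, Tob2 and Zc3h12a. In suspended cells it was Tob1, Btg1, Zfp36l1, Zfp36, Zfp36l2, Tob2 and Zc3h12a. Tob1 and Btg1 were close at the top in suspension, with a ratio of 1.08. Zfp36 and Zfp36l2 differed by a ratio of 1.29 in suspension, and the widest gap between neighbours was the 9.60-fold step from Tob2 to Zc3h12a in attached cells. With no spread per gene, none of these steps can be tested. Against all tested rows, Btg1 lay at percentile 95.2 attached, Tob1 at 88.4 attached and 95.4 suspended, and Zc3h12a at 24.2 and 33.1.

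The gene nearest to each of the 7 in log2 FPKM of the 2 conditions, among 14271 other genes above 0 in both, was taken as the most alike. For Zfp36 it was Tor3a (20.9 and 33.2 FPKM) and for Zfp36l1 it was G3bp2 (79.7 and 50.3 FPKM) per the authors' deposited table. Tob1 had the most distant neighbour, Ampd3 (60.5 and 119.5 FPKM), at a log2 distance of 0.10. With so many genes and 2 values each, a near neighbour is found for almost any gene.

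The CCR4-NOT complex, through which the ZFP36, TOB and BTG proteins act, changed little. Of 11 subunits, 2 rose, 1 fell and 8 were not called, with a median log2 fold change of -0.09 (18.2% higher and 9.09% lower, beside 24.7% and 26.3% of all tested rows). Cnot6l and Cnot6 encode catalytic subunits of the CCR4 type. Cnot6l went from 17.2 to 29.6 FPKM (q = 0.000185) and Cnot6 from 39.8 to 47.9 FPKM (q = 0.0360) per the authors' deposited table. Cnot7 and Cnot8, whose products bind TOB and BTG proteins, stood at 58.8 and 68.2 FPKM (q = 0.364) and at 29.8 and 33.5 FPKM (q = 0.276) per the authors' deposited table. Cnot11 fell from 25.0 to 19.7 FPKM (q = 0.0131), and the scaffold Cnot1 stood at 32.4 and 27.6 FPKM (q = 0.0587), per the authors' deposited table. With a q below 0.01 required, Cnot6 and Cnot11 lost their calls, which left 1 subunit higher (Cnot6l) and 0 lower. The rows of Cnot3, Cnot7 and Cnot9 overlap other coding genes and are uncertain. Cnot2, Cnot4 and Cnot10 were not called.

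The other deadenylases and poly(A)-binding genes had 1 higher, 1 lower and 6 not called of 8. That was 12.5% in each direction, beside 24.7% higher and 26.3% lower of all tested rows. Paip2 and Paip1, which encode an inhibitor and an activator of poly(A)-binding protein, moved apart. Paip2 rose from 77.0 to 118.2 FPKM (q = 0.000185, in a row that overlaps Slc23a1) and Paip1 fell from 71.0 to 53.0 FPKM (q = 0.00171) per the authors' deposited table. Of 16 decapping and 5′-to-3′ decay genes, 2 rose and 4 fell (12.5% and 25%, beside 24.7% and 26.3% of all tested rows). At an unadjusted Cuffdiff p below 0.05 there were 5 higher and 6 lower, and the share of all tested rows was not worked out. Lsm1, part of the ring that binds deadenylated ends, fell from 14.2 to 6.67 FPKM (q = 0.000185) per the authors' deposited table. Dcps, the scavenger decapping enzyme, fell from 22.2 to 12.8 FPKM (q = 0.000185, overlapping St3gal4) per the authors' deposited table. The 2 called higher, Dcp1b (1.95 to 4.18 FPKM) and Edc3 (5.64 to 9.14 FPKM), lie in rows that overlap other coding genes per the authors' deposited table.

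The exosome and SKI complex, which degrade transcripts from the 3′ end, leaned lower. Of 15 tested genes, 10 fell, 0 rose and 5 were not called, with a median log2 of -0.53 (66.7% lower, beside 26.3% of all tested rows). At an unadjusted Cuffdiff p below 0.05 the counts were the same, 10 lower and 0 higher. Ttc37, a scaffold of the SKI complex, fell from 12.9 to 4.16 FPKM (q = 0.000185), and Exosc1, a cap subunit, from 23.0 to 12.8 FPKM (q = 0.000185), per the authors' deposited table. Exosc8 fell from 26.4 to 10.4 FPKM (q = 0.00489) and Exosc2 from 16.7 to 7.65 FPKM (q = 0.00128) in rows that overlap other coding genes per the authors' deposited table. Among the 7 rows that overlap no other coding gene, 5 fell. With a 2-fold change required, 3 of the 10 were left, beside 7.12% of all tested rows lower by this rule.

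Other proteins that bind AU-rich or 3′-end sequences also leaned lower, with 8 of 12 that fell, 0 that rose and 4 not called (66.7% lower, beside 26.3% of all tested rows; median log2 -0.58). At an unadjusted Cuffdiff p below 0.05 there were 8 lower and 1 higher, Pum2, which stood at 72.8 and 84.6 FPKM (q = 0.0777) per the authors' deposited table. They act in different ways on a transcript: Elavl1 encodes HuR, which stabilises AU-rich transcripts, while Hnrnpd and Khsrp encode AU-rich binders known to promote decay. Igf2bp1, an RNA-binding protein known to stabilise transcripts, fell most, from 12.7 to 2.57 FPKM (q = 0.000185) per the authors' deposited table. Tial1 fell from 33.2 to 15.4 FPKM, Celf1 from 52.8 to 27.7 FPKM and Tia1 from 22.7 to 13.9 FPKM (each q = 0.000185) per the authors' deposited table, the last in a row that overlaps another gene. With a 2-fold change required, 2 of the 8 were left, beside 7.12% of all tested rows lower by this rule. Nonsense-mediated decay genes had 3 higher, 3 lower and 4 not called of 10. That was 30% in each direction, near the 24.7% and 26.3% of all tested rows. In that list Upf3a rose from 13.6 to 20.1 FPKM while its paralogue Upf3b fell from 13.1 to 6.44 FPKM (each q = 0.000185) per the authors' deposited table.

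**Figure D3:**
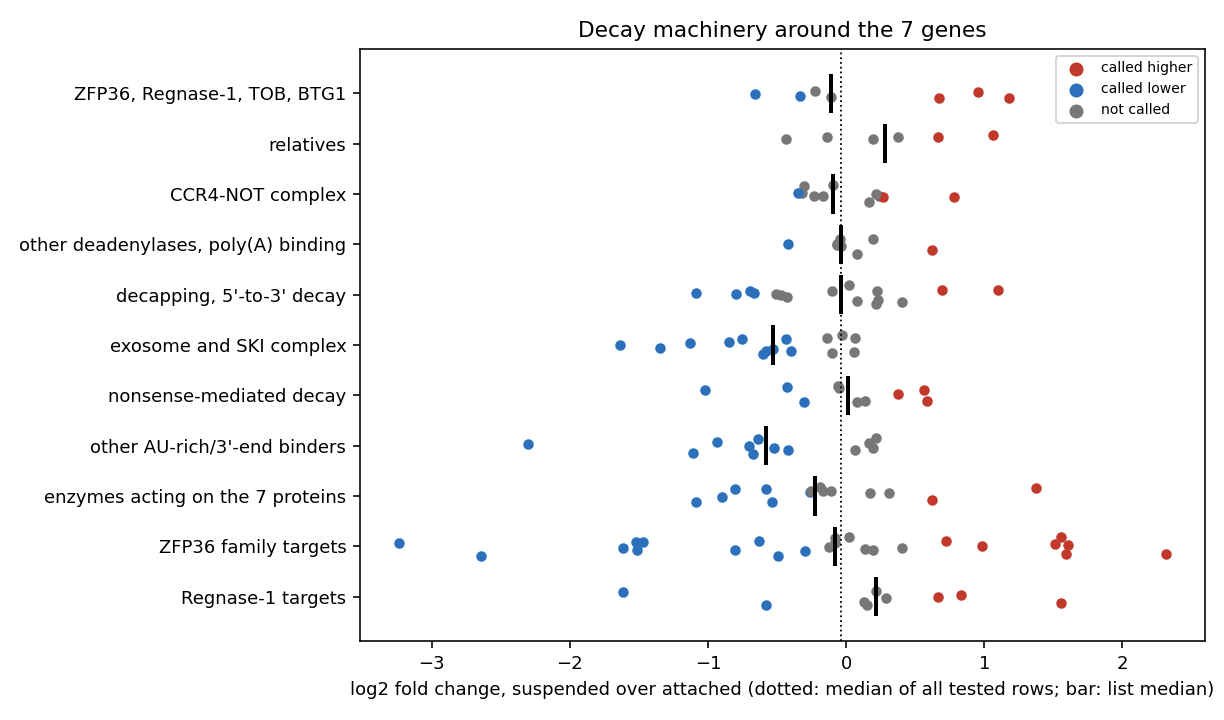
Each point is a tested gene of a list, at its log2 fold change on the x axis (suspended over attached) with the authors' call as its colour, a black bar marks each list's median and a dotted line marks the median of all tested rows (-0.04). The exosome and SKI list and the other AU-rich binders have no red point and medians of -0.53 and -0.58, while the 7 genes followed here spread to both sides.

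Enzymes that act on these proteins included 2 that rose, 6 that fell and 6 not called of 14 tested (14.3% higher and 42.9% lower, beside 24.7% and 26.3%). Malt1, a protease that cleaves Regnase-1, rose from 7.08 to 18.3 FPKM (q = 0.000185) per the authors' deposited table. Irak1, a kinase in the pathway that marks Regnase-1 for degradation, fell from 58.1 to 31.1 FPKM (q = 0.000185) per the authors' deposited table. Akt1, a kinase of ZFP36L1, fell from 150.0 to 85.8 FPKM, and Rps6ka1, a kinase of the RSK family, from 8.55 to 4.03 FPKM (each q = 0.000185), per the authors' deposited table. Mapkapk2, a kinase that inactivates ZFP36, stood at 73.7 and 83.0 FPKM (q = 0.176) per the authors' deposited table. Mapkapk3, the other gene of this list that rose, went from 23.3 to 35.9 FPKM (q = 0.000185) per the authors' deposited table.

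Of 24 tested transcripts known as targets of the ZFP36 family, 7 rose, 10 fell and 7 were not called (median log2 -0.08). The shares were 29.2% higher and 41.7% lower, beside 24.7% and 26.3% of all tested rows. Il23a, a cytokine subunit, rose from 0.266 to 1.32 FPKM, while Dll4, a Notch ligand, fell from 4.26 to 0.451 FPKM (each q = 0.000185) per the authors' deposited table. Ccnd1, which encodes cyclin D1, fell from 799 to 127.9 FPKM in a row that overlaps LTO1, and Csf3, a colony-stimulating factor, from 2.90 to 0.947 FPKM (each q = 0.000185), per the authors' deposited table. Tnf, the textbook target with 5 overlapping nonamers, was listed at 0.246 and 0.262 FPKM and was not tested. Il6 and Csf2 were listed at 0 in both conditions.

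Of the Regnase-1 targets, 3 of 9 rose and 2 fell (33.3% and 22.2%, near the 24.7% and 26.3% of all tested rows; median log2 0.22). Ptgs2, the inducible cyclooxygenase and a target in both lists, rose from 28.4 to 83.3 FPKM (q = 0.000185) per the authors' deposited table. Lcn2, a tubule injury marker, rose from 22.4 to 35.5 FPKM, and Rel, an NF-kB subunit, from 1.64 to 2.93 FPKM (each q = 0.000185), per the authors' deposited table. Those that fell were Csf3 (2.90 to 0.947 FPKM), also in both lists, and Tfrc (91.8 to 61.3 FPKM). Each had q = 0.000185 per the authors' deposited table.

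The nonamer stood in transcripts that rose and in transcripts that fell. Of the 14 tested ZFP36 family targets with it, 5 rose and 4 fell, and of the 10 without it, 2 rose and 6 fell. Over all tested genes with an annotated 3′ UTR, 27.4% were called higher and 29.6% lower. The counts of targets are small and carry no test. Sites were searched in GENCODE M21, which may differ from the annotation behind the deposited values. For some targets that were not called, the sites lay beyond the end of the row. Windows from a pair that rose (Ptgs2 and Il23a) and a pair that fell (Vegfa and Hif1a) show that the same letters occur in both, with capitals for the nonamer, of which Hif1a has a pair that overlap. Vegfa and Hif1a were chosen after their values were seen.
Ptgs2: ctgaccatatTTATTTATTtatgtgaagaa
Il23a: tagatgatggTTATTTATTctatttataag
Vegfa: ttgttatcatTTATTTATTggtgctactgt
Hif1a: atgcacctttTTATTTATTTATTtttggtg
They lie at chr1:150105790-150105819 (plus strand), chr10:128296183-128296212 (minus), chr17:46017165-46017194 (minus) and chr12:73946005-73946034 (plus), each in the 3′ UTR (GRCm38). Vegfa, a growth factor for vessels, fell from 66.1 to 23.9 FPKM and Hif1a, the hypoxia factor, from 103.1 to 66.6 FPKM (each q = 0.000185, that of Hif1a in a row that overlaps Gm49321) per the authors' deposited table.

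Over all 11733 tested genes with an annotated 3′ UTR, those with no nonamer were called higher in 27.2% and lower in 29.6% of cases (median log2 -0.04). The 737 genes with a single nonamer were called higher in 30.8% and lower in 27.4%, and the 214 genes with more than that in 27.6% and 34.6%. Genes with the site have longer 3′ UTRs (a median of 2285 bases with a single site and 1077 with none). Length itself went with the calls: without a nonamer, 20.1% of genes with a 3′ UTR under 500 bases and 34.9% of those from 4000 bases were called higher. Within 1000 to under 2000 bases, 29.3% of genes with a site and 29.9% of genes without one were called higher, and within 2000 to under 4000 bases 32.6% and 31.9%. Under 500 bases these shares were 14.0% (of 57 genes) and 20.1%, at 500 to under 1000 bases 24.3% and 25.8%, and from 4000 bases 33.9% and 34.9%. From the shortest class to the longest, 33.3%, 35.5%, 30.6%, 27.9% and 24.8% of genes with a site were called lower. Without a site it was 31.6%, 32.0%, 29.3%, 25.8% and 27.0%. These shares describe the table and carry no test.

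**Figure D4:**
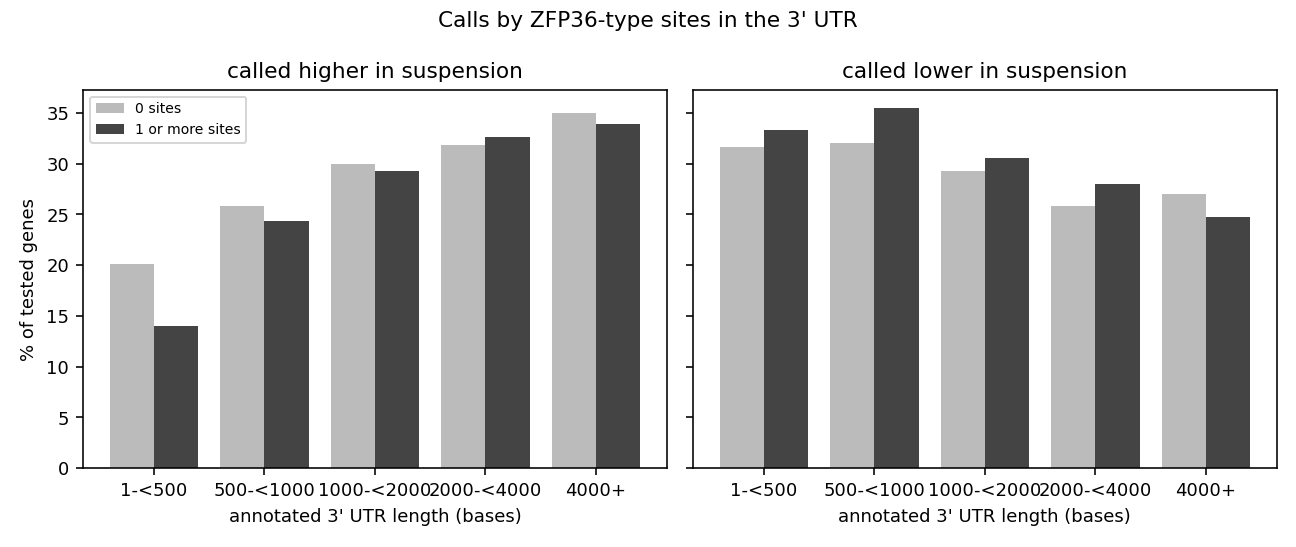
Percent of tested genes called higher (left) or lower (right) in suspension, by annotated 3′ UTR length in bases, for genes with no nonamer (light bars) and with at least 1 (dark bars). Light and dark bars are close from 1000 bases on, such as 29.9% and 29.3% higher at 1000 to under 2000 bases. In the left panel both kinds of bar are lowest in the shortest class, where 57 genes had a site.

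Promoter windows (250 bases before to 50 after the start, RefSeq GRCm38.p6) matched 6 of the 7 genes, all but Zfp36l2. They were searched on both strands for a FOXO motif (TGTTTAC), an AP-1 motif (TGACTCA), an EGR motif (GCGGGGGCG), an antioxidant element bound by NRF2 (TGACNNNGC) and a cyclic AMP element (TGACGTCA). The first was found in Btg1 and the EGR motif in Zfp36, and the others in none of the 6.
Btg1: gggggtttattTGTTTACaagcagattacg
Zfp36: gagctacgccGCGGGGGCGcgtcccggaag
The windows are chr10:96616786-96616815 (plus strand) and chr7:28379314-28379343 (minus strand). Of 27025 promoters, 3.55% held the FOXO motif, 2.92% the EGR motif, 5.17% the AP-1 motif, 12.5% the NRF2 element and 1.88% the cyclic AMP element. Btg1 was not called and Zfp36 rose, and the match says nothing of which factor acted.

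The cells expressed kidney epithelial markers at high levels in both conditions, and the 7 markers summed to 2430 FPKM attached and 2260 FPKM suspended. Epcam (260.6 and 252.8 FPKM, q = 0.761) was the 1 marker not called, per the authors' deposited table. Of the 7 markers 2 rose and 4 fell (28.6% and 57.1%, beside 24.7% and 26.3% of all tested rows). Pax2 fell most, from 150.2 to 30.9 FPKM, and Pax8 fell from 104.0 to 37.1 FPKM (each q = 0.000185) per the authors' deposited table. Cdh1 rose from 95.4 to 201.2 FPKM (q = 0.000185) and Cdh16 fell from 440.7 to 345.8 FPKM (q = 0.00268) per the authors' deposited table. Markers of other kidney cell types summed to 28.2 FPKM attached and 48.8 FPKM suspended over 10 genes, 7 of which were below 1 FPKM in both conditions. Adgre1 (macrophages) and Nphs1 (podocytes) were listed at 0 in attached cells and near 0 in suspended cells, and the endothelial markers Pecam1 and Cdh5 stayed below 1 FPKM. Acta2, a marker of smooth muscle and myofibroblasts, fell from 2.90 to 1.10 FPKM (q = 0.000185) per the authors' deposited table. The leukocyte markers Ptprc (1.42 to 12.4 FPKM) and Cd68 (23.4 to 34.9 FPKM) rose (each q = 0.000185) per the authors' deposited table. They moved with the rises of Zfp36 and Zc3h12a, genes that leukocytes also express, and their part in those rises was not tested. The mitochondrial transcript mt-Cytb rose from 1076 to 3310 FPKM (q = 0.000185) and the nuclear Malat1 stood at 79.2 and 69.6 FPKM (q = 0.538) per the authors' deposited table, and the part of RNA quality in the results was not tested.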

How the data were processed

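RNA from 6 libraries, 3 attached and 3 suspended, was sequenced as purified mRNA on an Illumina instrument, per the labels' protocols. TopHat, Bowtie, Cufflinks 1.0.3 and Cuffdiff with build mm10 are named, per the submitters' processing notes. The sources used here give no settings, annotation or strand. The FPKM were deposited by the authors as 1 value per condition over its libraries. The log2 fold change, the test score, the p-value and the q-value are the authors' own, per the file headers. A log2 ratio worked out from the deposited FPKM matched the authors' log2 to within 4.0e-05. Starts were shifted to count from 1.

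No test was run on libraries, and calls are the authors' q below 0.05. Intervals are the log2 change plus or minus 1.96 times its size over the normal quantile of p. The members and gene lists were chosen with earlier results of these data known. Named genes are the 7 members, their relatives, CCR4-NOT subunits, up to 4 called genes per list with the greatest change and at least 1 FPKM, and 1 nearest gene per member. Smg5, Smg6 and the nearest genes of Zfp36l2, Zc3h12a, Tob2 and Btg1 met this rule and are not described. Other named genes were chosen after their values were seen. They are Epcam, Mapkapk2, Mapkapk3, Tfrc, Tnf, Il6, Csf2, Elavl1, Hnrnpd, Khsrp, Pum2, Malat1, Vegfa, Hif1a, Adgre1, Nphs1, Pecam1 and Cdh5. Of 164 listed genes 6 had no row of their own and 2 matched by an older name. Site searches used GENCODE M21 and RefSeq tables, and were added after the values were seen. Calculations were tested on simulated data. Python 3.11.15, NumPy 2.4.6, pandas 2.3.3, SciPy 1.17.1 and matplotlib 3.10.9 were used.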

Additional observations from a re-analysis of the deposited data

How the results depend on the processing

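With q below 0.01, with a recomputed Benjamini-Hochberg adjustment and with a minimum of 1 FPKM in both conditions the members stood at 3 higher and 2 lower. Requiring a 2-fold change left 1 higher (Zc3h12a) and 0 lower, ending the calls of Zfp36, Zfp36l1, Zfp36l2 and Tob1 by construction. It took the listed decay genes and targets from 21 to 8 higher and from 44 to 14 lower. The exosome and SKI genes went to 3 lower of 15, and the other AU-rich binders to 2 lower of 12. Over all tested rows the 2-fold rule took the called shares from 24.7% to 12.4% higher and from 26.3% to 7.12% lower. With at least 1 FPKM in both conditions, ZFP36 family targets called higher went from 7 to 4 and called lower from 10 to 8. The lost rises, that of Il23a among them, were of genes below 1 FPKM in attached cells. The lost falls, of Dll4 and Csf3, were of genes below 1 FPKM in suspended cells. A pseudocount of 1 or 0.1 reversed no member and shrank a log2 by at most 1.37 times. That largest shrinkage was of Zc3h12a, from 1.18 to 0.86 with a pseudocount of 1, which put it below 2-fold and below Tob1 (0.94). Centring on the median gene (-0.11) keeps the deposited q, so it tests no call. It moved the log2 of Zfp36l2 from -0.33 to -0.23, of Btg1 from -0.23 to -0.12 and of Tob2 from -0.11 to -0.00016. Zfp36 went from 0.67 to 0.78, Zfp36l1 from -0.66 to -0.55, Tob1 from 0.95 to 1.06 and Zc3h12a from 1.18 to 1.29. No paired analysis was possible because the table holds 1 value per condition, which also kept leaving out a replicate from being run. The depth is unknown, so low genes such as Zc3h12a are the least secure.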
